A study of Mus musculus with 24 samples.

Results

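Disease-associated microglia are microglia that take up a shared expression program around damage in the brain. The 10 genes described here are a set of well-known genes of that program, Trem2, Tyrobp, Cst7, Itgax, Lpl, Axl, Clec7a, Spp1, Cd9 and Csf1, chosen by name from 33000 genes in the count table. They were compared between frontal cortex of wild-type (WT) C57BL/6 mice and of C57BL/6 mice homozygous for GFAP-IL6, a transgene in which the Gfap promoter drives the cytokine Il6 in astrocytes. There were 3 mice per genotype, all 3 months old and with no treatment named in the labels, and no gene of the set was deleted or edited in either group. From each mouse 4 libraries were made by 3'Pool-seq, which reads the 3' ends of polyadenylated transcripts, in sets called A and B. Each set holds a library that took 2 ng of cDNA into tagmentation and another that took 1 ng. How set A was made differently from set B is not given in the sources used here.

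Microglia sense lipids and cell debris through the surface receptor TREM2, which has no signalling tail of its own and works through the adaptor TYROBP, also called DAP12. Phosphorylated TYROBP recruits the kinase SYK, which acts on PLCG2, and this route is needed for microglia to take up the full disease-associated program in mouse models of amyloid disease. The other genes of the set code for further receptors, for secreted factors and for proteins of lipid and lysosome metabolism, and several of them, Axl, Cd9, Lpl and Csf1 among them, are also made by other cells of the cortex.

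All 10 genes are in the count table, and 8 of them passed the filter on low counts. In GFAP-IL6 cortex Trem2 was 2.27-fold, Tyrobp 1.81-fold and Cst7 13.5-fold higher than in WT cortex, and these were the members that passed the test. Itgax was counted in all 3 GFAP-IL6 mice and in no WT mouse. For Lpl and Axl the groups overlapped and the estimates lay near 0, and Spp1, Cd9 and Csf1 had higher means that did not pass the test.

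The label of the transgenic group was checked first. Il6 read 0.26, 0.17 and 0 CPM (counts per 1000000 of the TMM-scaled total) in WT mice 1, 2 and 3 and 3.16, 1.58 and 4.23 CPM in GFAP-IL6 mice 1, 2 and 3, a log2 fold change of 4.06 ± 0.57 (SE, edgeR adjusted p = 0.00078). Gfap, the intermediate filament gene of astrocytes whose promoter the transgene uses, read 16 to 23.5 CPM in WT and 80.8 to 146 CPM in GFAP-IL6 mice, a log2 fold change of 2.44 ± 0.18 (SE, edgeR adjusted p = 1.6e-06). Libraries held 1524165 to 12256374 counts, and the 4 libraries of a mouse summed to 7852743 to 19098634 counts in WT and 9534116 to 37582644 in GFAP-IL6. Among the GFAP-IL6 mice the most deeply sequenced, mouse 3, had the highest levels of Trem2, Tyrobp, Gfap and Itgax and the shallowest, mouse 1, had the lowest. With the counts of every mouse thinned to the smallest total the log2 fold change of Trem2 was 1.18 and that of Tyrobp 0.86. Thinning draws at random from the same counts, so it cannot show why level followed depth in these mice, which was not tested.

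Promoters of 8 of the 10 members, all but Tyrobp and Lpl, were matched in RefSeq's GRCm38.p6 sequences. Windows of Trem2 and Cst7, which were DEGs, and of Itgax, counted in GFAP-IL6 mice alone, are shown beside that of Axl, for which the genotypes overlapped. Each window runs from 250 bases before the RefSeq start of the gene to 30 bases into it, 5' to 3' on the strand of the gene. For Axl and Itgax that start differs from the GENCODE start given with the gene below. Capitals mark matches, on either strand, to GAGGAA, the core letters bound by the myeloid factor PU.1, and to TGANTCA. The latter is a loose form of the AP-1 site, which has G or C in the middle.

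Trem2, chr17:48346151-48346430, plus strand: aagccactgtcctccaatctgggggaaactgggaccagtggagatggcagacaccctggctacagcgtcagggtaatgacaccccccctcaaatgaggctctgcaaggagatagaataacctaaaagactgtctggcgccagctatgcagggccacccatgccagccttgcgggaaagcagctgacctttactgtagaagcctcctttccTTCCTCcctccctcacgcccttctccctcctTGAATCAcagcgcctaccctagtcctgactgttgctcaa
Cst7, chr2:150570165-150570444, plus strand: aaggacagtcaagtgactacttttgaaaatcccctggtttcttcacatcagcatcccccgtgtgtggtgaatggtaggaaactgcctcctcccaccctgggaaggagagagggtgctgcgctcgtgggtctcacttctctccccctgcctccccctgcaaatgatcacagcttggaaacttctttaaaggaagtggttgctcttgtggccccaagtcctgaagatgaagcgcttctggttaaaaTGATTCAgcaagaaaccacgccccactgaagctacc
Itgax, chr7:128129300-128129579, plus strand: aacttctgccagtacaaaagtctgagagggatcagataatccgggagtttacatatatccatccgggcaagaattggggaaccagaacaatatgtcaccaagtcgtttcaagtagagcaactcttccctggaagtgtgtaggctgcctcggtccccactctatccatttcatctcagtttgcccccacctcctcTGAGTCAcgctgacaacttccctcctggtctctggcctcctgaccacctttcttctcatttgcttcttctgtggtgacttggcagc
Axl, chr7:25788704-25788983, minus strand: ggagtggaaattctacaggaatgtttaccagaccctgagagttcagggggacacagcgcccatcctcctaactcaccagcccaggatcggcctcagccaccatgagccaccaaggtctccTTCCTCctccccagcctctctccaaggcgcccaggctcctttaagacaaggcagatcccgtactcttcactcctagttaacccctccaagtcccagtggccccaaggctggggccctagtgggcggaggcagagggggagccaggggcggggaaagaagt

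The Trem2 window holds both motifs, GAGGAA read on the opposite strand at bases -40 to -35 and TGANTCA at bases -9 to -3, counted from the start base as 0. In Cst7 the TGANTCA match lies at bases -6 to 0, and in Itgax at bases -56 to -50. The middle base is A in Trem2, T in Cst7 and G in Itgax, so of these only Itgax has the usual AP-1 letters. The Axl window holds GAGGAA on the opposite strand at bases -130 to -125 and no TGANTCA. Over the full windows of 300 bases, 3 of the 8 members hold TGANTCA (Cst7, Itgax and Trem2), against 7.81% of 32851 promoters of the same length. The share of promoters with G or C in the middle was not counted. GAGGAA was found in 4 members (Axl, Clec7a, Spp1 and Trem2), against 28.3% of all promoters. The letters of a STAT site, TTCNNNGAA, were found in 0 of the 8 members and in 8.30% of all promoters. Clec7a and Spp1 have 2 windows each and were counted as genes, while the shares of all promoters count windows. The windows shown were picked by the genotype result, and those of Clec7a, Spp1, Cd9 and Csf1 are not shown. Binding at these letters was not tested. The motifs searched do not overlap each other in the windows shown.

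Genotypes were compared after summing the 4 libraries of each mouse, and DEGs were genes changed more than 2-fold with an adjusted p below 0.05 (edgeR). Of the 8 members tested 2 were DEGs, both higher in GFAP-IL6, against 1.2% of the 14621 genes tested. At an adjusted p under 0.05 alone 3 members were higher, against 1.74% of all genes, and 0 were lower, against 0.0547% of all genes. In DESeq2 2 members were DEGs (1.24% of all genes were higher DEGs), 3 were higher at an adjusted p under 0.05 (1.99%) and 0 were lower. At an unadjusted p under 0.05 in edgeR 6 members were higher, against 6.27% of all genes, and 0 were lower. Every GFAP-IL6 mouse lay above every WT mouse in 5 of the 8, Trem2, Tyrobp, Cst7, Spp1 and Csf1, against 8.43% of all genes. The median log2 fold change was 0.51 over the 8 members and -0.0069 over all genes tested. The members, and the lists of genes below, were chosen with earlier results of these data known. These shares are therefore no test of the set. Cst7 reached the test through the GFAP-IL6 mice, since it had at most 14 counts in a WT mouse.

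**Figure D1:**
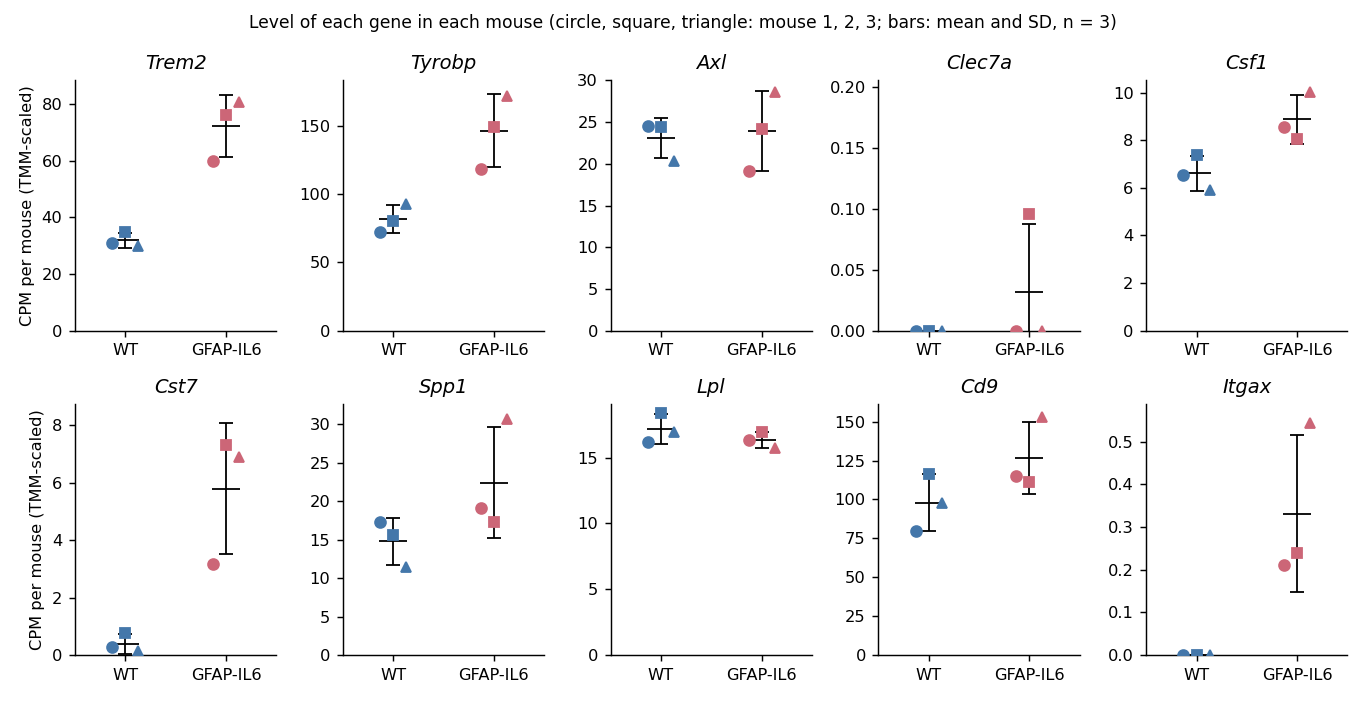
Level of each of the 10 genes in each of the 6 mice, in TMM-scaled CPM of the 4 libraries summed, on linear axes that start at 0 and differ between genes. Circles, squares and triangles are mice 1, 2 and 3 of a genotype, bars are the mean and SD (n = 3), and Trem2, Tyrobp and Cst7 show a wide gap between the genotypes while Axl, Lpl and Cd9 overlap.

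Trem2 (ENSMUSG00000023992, chr17:48346401-48354147, plus strand, mm10) codes for the receptor itself. It read 31.1, 34.9 and 29.8 CPM in WT mice 1 to 3 and 60.0, 76.4 and 80.9 CPM in GFAP-IL6 mice 1 to 3. The lowest GFAP-IL6 mouse stood well above the highest WT mouse. The mean was 31.9 ± 2.65 CPM in WT and 72.4 ± 11.02 CPM in GFAP-IL6 (SD, n = 3 each), a log2 fold change of 1.18 ± 0.12 (SE, 95% interval 0.94 to 1.43, edgeR adjusted p = 2.6e-05). Over single libraries Trem2 ranged from 25.1 to 37.4 CPM with a median of 31.7 in the 12 WT libraries, and from 53.3 to 92.7 CPM with a median of 71.9 in the 12 GFAP-IL6 libraries. No library of one genotype fell within the range of the other.

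Tyrobp (ENSMUSG00000030579, chr7:30413760-30417585, plus strand) codes for the adaptor through which TREM2 and several other myeloid receptors signal. It read 72.4, 80.2 and 92.8 CPM in the WT mice and 119, 150 and 172 CPM in the GFAP-IL6 mice. The groups did not overlap, and the rise was smaller than 2-fold, with a log2 fold change of 0.86 ± 0.12 (SE, 95% interval 0.59 to 1.12, edgeR adjusted p = 0.0010). The 12 WT libraries ranged from 63.5 to 116 CPM with a median of 78.9, and the 12 GFAP-IL6 libraries from 115 to 179 CPM with a median of 151. Across all sets the highest WT library was thus just above the lowest GFAP-IL6 library, while within each of the 4 sets every GFAP-IL6 library was above every WT library.

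Axl (ENSMUSG00000002602, chr7:25757273-25788705, minus strand) codes for a receptor tyrosine kinase that binds phosphatidylserine on dying cells through its ligand GAS6. It read 24.6, 24.4 and 20.3 CPM in WT and 19.1, 24.2 and 28.6 CPM in GFAP-IL6 mice. The lowest and the highest of the 6 values were both GFAP-IL6 mice, and the log2 fold change was 0.06 ± 0.14 (SE, 95% interval -0.24 to 0.36, edgeR adjusted p = 0.95). It was -0.09 without GFAP-IL6 mouse 3, so Axl had no stable direction, and the interval leaves room for a difference of either sign that is smaller than those of Trem2 and Tyrobp.

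Clec7a codes for Dectin-1, a receptor for fungal glucans on myeloid cells. Its row held 0 counts in 23 of 24 libraries and 2 counts in 1 library of GFAP-IL6 mouse 2. The row is a gene model of 735 bases under the identifier ENSMUSG00000102040, which is not in GENCODE vM21. There Clec7a is ENSMUSG00000079293 (chr6:129461591-129472779, minus strand), with 2638 exonic bases, a coding length of 735 bases and a 3' UTR of 1450 bases in its transcript with the longest coding sequence. The row is thus as long as the coding sequence alone. Reads at the 3' end of the transcript would lie outside such a model, so the counts in this row give no level of Clec7a in either genotype.

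Csf1 (ENSMUSG00000014599, chr3:107741048-107760469, minus strand) codes for the growth factor that keeps microglia alive through the receptor CSF1R. It read 6.55, 7.36 and 5.90 CPM in WT and 8.54, 8.05 and 10.03 CPM in GFAP-IL6 mice, with every GFAP-IL6 mouse above every WT mouse. The gap between the groups was narrow, and the log2 fold change of 0.42 ± 0.17 (SE, 95% interval 0.06 to 0.78) did not pass the test (edgeR adjusted p = 0.43).

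Spp1 (ENSMUSG00000029304, chr5:104435118-104441050, plus strand) codes for osteopontin, a secreted ligand of integrins and of CD44. It read 17.3, 15.6 and 11.4 CPM in WT and 19.2, 17.4 and 30.7 CPM in GFAP-IL6 mice. GFAP-IL6 mouse 3 stood well above the other mice, and the groups were kept apart by 17.35 CPM in GFAP-IL6 mouse 2 against 17.31 CPM in WT mouse 1. The log2 fold change was 0.60 ± 0.20 (SE, 95% interval 0.17 to 1.02, edgeR adjusted p = 0.25), and it was 0.27 without GFAP-IL6 mouse 3. Gene Gm42793 overlaps Spp1 on the same strand and is not in the table used here.

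Cst7 (ENSMUSG00000068129, chr2:150570415-150578944, plus strand) codes for cystatin F, an inhibitor of the lysosomal cysteine proteases of immune cells, among them cathepsin C. It had 5, 14 and 1 counts in WT mice 1 to 3 and 30, 153 and 266 counts in GFAP-IL6 mice 1 to 3. On the CPM scale this was 0.26, 0.78 and 0.13 in WT and 3.16, 7.33 and 6.90 in GFAP-IL6. GFAP-IL6 mouse 1 was the lowest of its group and still above each WT mouse. The log2 fold change was 3.75 ± 0.44 (SE, 95% interval 2.81 to 4.70, edgeR adjusted p = 0.00015), the largest of the 8 members tested. The WT level behind it rests on 20 counts in all, with counts in 7 of 12 WT libraries, and leaving out WT mouse 2 raised the log2 fold change to 4.72. All 12 GFAP-IL6 libraries had counts, from 2.10 to 12.1 CPM with a median of 5.42.

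Itgax (ENSMUSG00000030789, chr7:128129547-128150657, plus strand) codes for the integrin alpha chain CD11c, which pairs with the beta chain ITGB2 and is found on dendritic cells and on activated microglia. It had 0 counts in each of the 3 WT mice and 2, 5 and 21 counts in GFAP-IL6 mice 1 to 3, and it did not reach the test. The counts came from 9 of the 12 GFAP-IL6 libraries, so they are not owed to a single library, although mouse 3, the most deeply sequenced, gave 21 of the 28. Over the group, 28 of 67758101 counts are 0.413 CPM, while 0 of 45187378 counts in WT allow up to 0.0664 CPM (3 counts over the group). Against that floor Itgax was at least 6.22-fold higher in GFAP-IL6, a bound that takes the 28 counts as they are. With the exact Poisson lower limit of the 28 counts (95%) it was 4.14-fold, and without mouse 3 it was 3.49-fold, on 7 counts. These limits cover counting error only and not the spread between mice.

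Lpl (ENSMUSG00000015568, chr8:68880491-68907448, plus strand) codes for lipoprotein lipase, which releases fatty acids from lipoproteins. It read 16.2, 18.4 and 16.9 CPM in WT and 16.3, 16.9 and 15.7 CPM in GFAP-IL6 mice. The groups overlapped, and the log2 fold change was -0.07 ± 0.12 (SE, 95% interval -0.33 to 0.18, edgeR adjusted p = 0.93). The interval does not reach the estimate of any of the 3 members that passed the test.

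Cd9 (ENSMUSG00000030342, chr6:125460266-125494791, minus strand) codes for a tetraspanin, a membrane protein that gathers integrins and other partners at the cell surface. It read 79.8, 116 and 98.0 CPM in WT and 115, 111 and 153 CPM in GFAP-IL6 mice. WT mouse 2 lay above GFAP-IL6 mice 1 and 2, and the log2 fold change was 0.37 ± 0.14 (SE, 95% interval 0.08 to 0.67, edgeR adjusted p = 0.35). Genes Gm28809 and Gm26728 overlap Cd9 on the opposite strand and held 14 and 28 counts in all 24 libraries, a small amount beside the 4384 counts of Cd9 in WT and 9316 in GFAP-IL6.

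The comparison was repeated within each set of 6 libraries, which come from the same mice and are not independent of the sum. Trem2 was a DEG in each, with log2 fold changes of 1.23 (2 ng, set A), 1.10 (1 ng, set A), 1.37 (2 ng, set B) and 1.13 (1 ng, set B). Tyrobp gave 0.99, 0.92, 0.89 and 0.79 in the same order, each with an edgeR adjusted p of at most 0.0054 and each below the fold threshold. Cst7 was a DEG in the 3 sets in which it passed the filter, with log2 fold changes of 3.72 (2 ng, set A), 5.15 (2 ng, set B) and 3.01 (1 ng, set B). The WT libraries behind the 5.15 held 0 to 2 counts of Cst7. In 1 ng of set A Cst7 was not tested, and it read 0.22 to 0.49 CPM in WT and 2.10 to 8.02 CPM in GFAP-IL6 libraries.

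Members called DEGs thus numbered 2 in 2 ng of set A (0.681% of the genes tested there), 1 in 1 ng of set A (0.758%), 2 in 2 ng of set B (0.736%) and 2 in 1 ng of set B (0.748%). At an adjusted p under 0.05 alone the members higher in GFAP-IL6 were Trem2 and Tyrobp in all 4 sets and Cst7 in the 3 where it was tested, against 1.01%, 1.07%, 1.05% and 1.06% of genes in the same order of sets. Spp1 ranged from 0.52 to 0.65, Cd9 from 0.32 to 0.43 and Csf1 from 0.29 to 0.61 on the log2 scale, positive in each set and not called in any. Axl ranged from -0.11 to 0.28. Lpl ranged from -0.55 to 0.14, with the lowest value in 2 ng of set A (95% interval -1.01 to -0.10, edgeR adjusted p = 0.48).

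**Figure D2:**
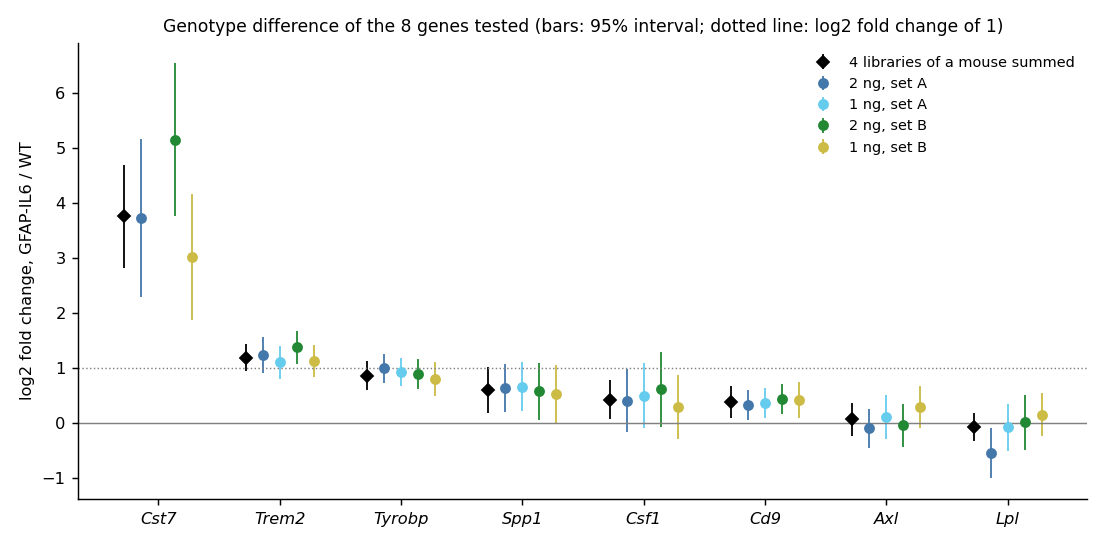
Log2 fold change between GFAP-IL6 and WT for the 8 members tested, with 95% intervals, for the 4 libraries of a mouse summed (black diamonds) and for each set of 6 libraries (coloured circles). Cst7, Trem2 and Tyrobp lie above 0 with every interval, and Axl and Lpl lie on both sides of 0.

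Libraries of the same mouse were compared next, with the mouse as a block. Cd9 was higher with 2 ng than with 1 ng of cDNA, by 0.46 ± 0.04 on the log2 scale (SE, edgeR adjusted p = 7.9e-13), in 6 of 6 mice. Its mean was 136 ± 28.2 CPM with 2 ng and 96.8 ± 20.5 CPM with 1 ng (SD, n = 6 mice). Spp1 was higher with 2 ng by 0.35 ± 0.09 (SE, edgeR adjusted p = 0.0018), also in 6 of 6 mice, with means of 21.7 ± 7.86 and 16.5 ± 5.42 CPM (SD, n = 6). These 2 of the 8 members stand against 26.1% of the 13249 genes tested, so members were called about as often as other genes. Samples are pooled before tagmentation in this protocol, so libraries of different mice could share a pool and its cDNA amount. The mice are then not independent repeats of the amount.

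Between the sets 4 of the 8 members differed, against 26.2% of genes. Cd9 was lower in set B than in set A, by a log2 ratio of -0.55 ± 0.04 (SE, edgeR adjusted p = 1.1e-14), with means of 93.2 ± 21.2 and 139 ± 27.6 CPM (SD, n = 6 mice). Spp1 gave -0.47 ± 0.09 (SE, edgeR adjusted p = 4.9e-05) and Csf1 -0.34 ± 0.13 (SE, edgeR adjusted p = 0.045), and all 3 of these genes were lower in set B in 6 of 6 mice. Trem2 was higher in set B by 0.17 ± 0.06 (SE, edgeR adjusted p = 0.019), in 5 of 6 mice. For Cd9 the shift between sets was larger than the estimated difference between genotypes, and for Trem2 it was far smaller. Samples are pooled before tagmentation, but which libraries shared a pool is not given in the sources used here. Spread between pools is thus not in the p-values for cDNA amount or for set.

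**Figure D3:**
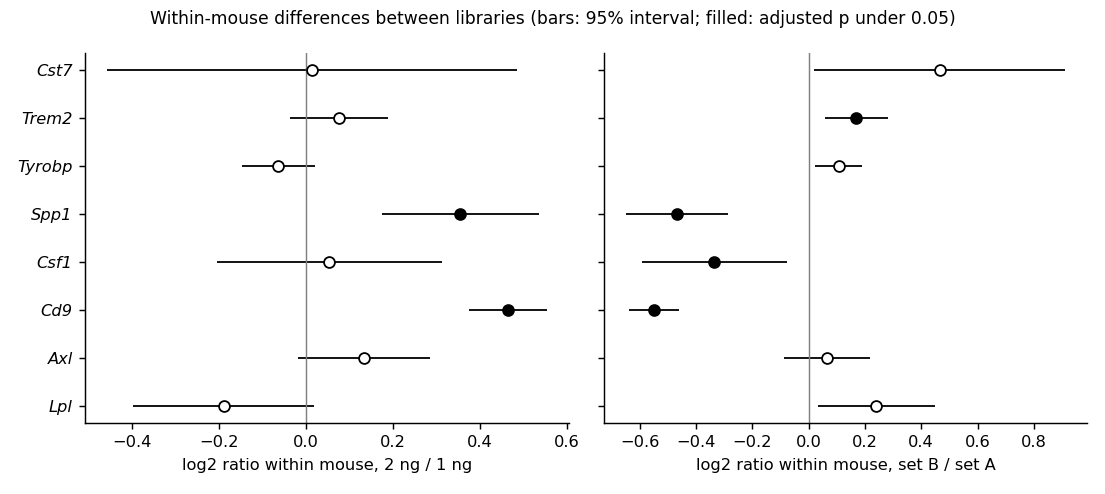
Log2 ratios between libraries of the same mice for the 8 members tested, with 2 ng against 1 ng of cDNA on the left and set B against set A on the right. Bars are 95% intervals and filled points have an adjusted p under 0.05, with Cd9 and Spp1 shifted in both panels and in opposite directions.

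The genotype difference of a member did not pass the test for a difference between cDNA amounts or between sets. For the amount, 0 of 8 members and 0% of all genes passed in edgeR, with 0 members and 269 genes of 13249 at an unadjusted p under 0.05, and limma-voom also gave 0 of 8. For the set, 0 of 8 members and 0% of all genes passed in edgeR, with 0 members and 708 genes at an unadjusted p under 0.05. In limma-voom 0 of 8 passed, and 1 of 8 members had an unadjusted p under 0.05, as did 805 genes of 13249 (6.08%). The interval of the interaction with the amount was -0.04 to 0.43 for Trem2 and -0.12 to 0.24 for Tyrobp on the log2 scale, and for Cst7, with few WT counts, it was -0.40 to 2.71.

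The genes that work with the members were read from lists made by their known roles. In TREM2 signalling 3 of 13 genes tested were higher, Vav1 (log2 fold change 1.51), Plcg2 (1.25) and Ptpn6 (1.06), and 0 were lower, with a median of 0.24. Plcg2, the phospholipase downstream of TREM2 and SYK, read 1.51, 1.44 and 1.44 CPM in WT and 3.90, 3.31 and 3.37 CPM in GFAP-IL6 mice (edgeR adjusted p = 0.025). Syk, the kinase that TYROBP recruits, read 0.73, 1.38 and 1.57 CPM in WT and 2.53, 2.35 and 2.26 CPM in GFAP-IL6, and it did not pass the test (log2 fold change 1.004, edgeR adjusted p = 0.31). Hcst, which codes for the other adaptor of TREM2 and lies next to Tyrobp in the genome, had a log2 fold change of 0.09.

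Among ligands, receptors and partners of the members 8 of 21 genes tested were higher and 0 lower, with a median of 0.39. Those with the largest log2 fold changes were Apoc2 (4.47), Itgb2 (1.71), Ctsc (1.67) and Ctsh (1.32). Apoc2, the cofactor of lipoprotein lipase, rested on 2 counts in WT mouse 1 and none in the other WT mice, against 8, 19 and 56 counts in GFAP-IL6 mice 1 to 3. Itgb2, the partner of Itgax, read 2.27 to 2.70 CPM in WT and 6.32 to 9.12 CPM in GFAP-IL6 mice. Ctsc, the protease that cystatin F inhibits, read 8.58 to 11.02 CPM in WT and 24.2 to 39.1 CPM in GFAP-IL6 mice, so inhibitor and target were both higher.

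Gas6, the ligand of AXL, gave a log2 fold change of 0.10 (edgeR adjusted p = 0.86). It read 43.9 to 50.0 CPM in WT and 46.3 to 52.8 CPM in GFAP-IL6. Pros1, a ligand of other receptors of the AXL family, was higher by 1.10 (edgeR adjusted p = 0.00041). Csf1r, the receptor of Csf1, was higher by 0.64 (edgeR adjusted p = 0.023). Il34, its other ligand, gave -0.05 (adjusted p = 0.96). Cd44, a receptor of osteopontin, gave 0.63 (adjusted p = 0.64), and Gpihbp1, which anchors lipoprotein lipase to capillaries, had 1 count in all and was not tested.

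Of 26 other genes of the disease-associated program that were tested, 9 were higher and 0 lower, and 4 were DEGs, Ch25h (log2 fold change 2.43), Lyz2 (2.01), Itgb2 (1.71) and Cd52 (1.46). The median was 0.35. Apoe, the lipoprotein gene that microglia share with astrocytes, read 4763 to 5197 CPM in WT and 5682 to 6755 CPM in GFAP-IL6 mice, and its log2 fold change of 0.31 did not pass the test (edgeR adjusted p = 0.13).

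Lists of microglia and myeloid genes moved as well. All 13 pan-myeloid genes were higher, 12 of them as DEGs, with a median log2 fold change of 1.31, led by Ly86 (1.84), Ctss (1.81), Ptprc (1.78) and Itgam (1.6). Their summed level was 592 to 653 CPM in WT and 1464 to 1945 CPM in GFAP-IL6 mice. Of 14 genes of homeostatic microglia 6 were higher and 0 lower, with a median of 0.49, among them Olfml3 (1.25), Fcrls (0.82) and Cx3cr1 (0.72), while P2ry12 gave -0.02. In RNA of whole tissue, more microglia and more RNA of a gene per microglia cannot be told apart, and their part in the levels of Trem2, Tyrobp, Cst7 and Itgax was not tested.

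**Figure D4:**
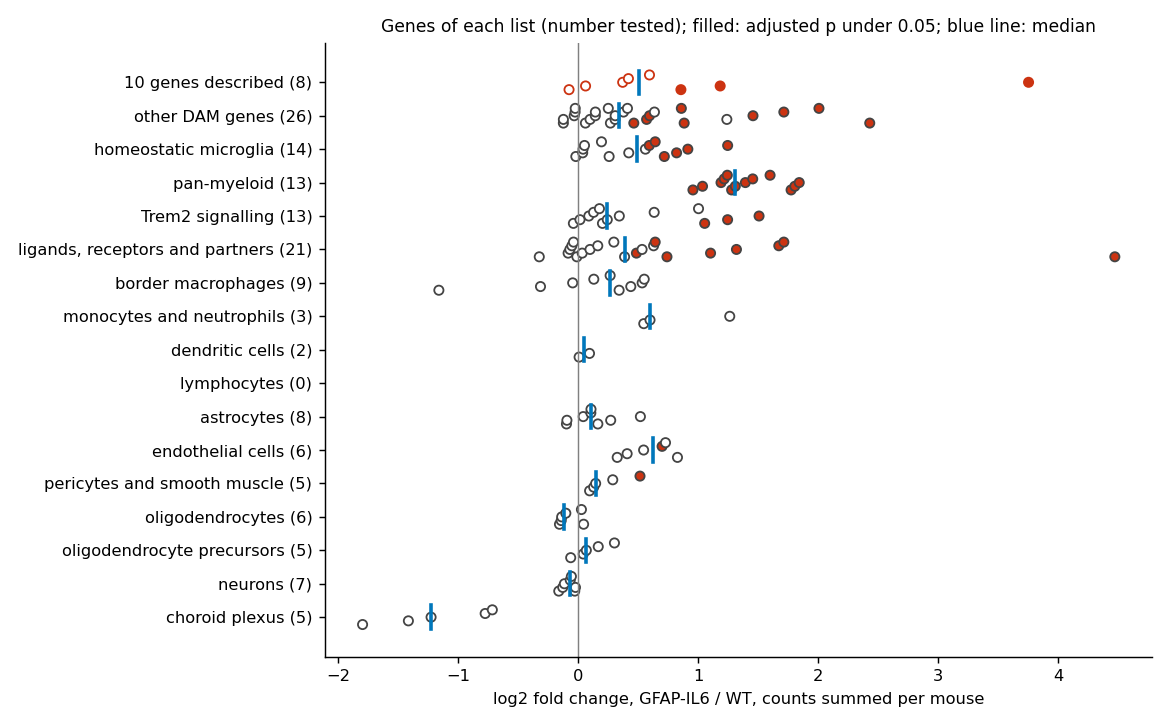
Log2 fold change between GFAP-IL6 and WT for each tested gene of the 10 described (red outlines) and of 16 other lists, with the number tested in brackets. Filled points have an adjusted p under 0.05 and blue lines are medians, and the pan-myeloid list lies furthest to the right with all of its points filled.

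Relative to these lists the 3 members differed from one another. Trem2 amounted to 6.58%, 6.66% and 6.11% of the summed CPM of the homeostatic list in WT mice 1 to 3 and to 9.02%, 10.3% and 9.27% in GFAP-IL6 mice 1 to 3, with Cst3, at 5275 to 6404 CPM most of the list, left out. Relative to the pan-myeloid list Trem2 went the other way, from 5.10%, 5.34% and 5.03% in WT to 4.10%, 4.30% and 4.16% in GFAP-IL6. Tyrobp amounted to 15.3%, 15.3% and 19.0% of the homeostatic list in WT and 17.9%, 20.1% and 19.7% in GFAP-IL6, where the groups overlapped. It amounted to 11.9%, 12.3% and 15.7% of the pan-myeloid list in WT and 8.10%, 8.42% and 8.86% in GFAP-IL6. Cst7 amounted to 0.055%, 0.148% and 0.027% of the homeostatic list in WT and 0.476%, 0.986% and 0.790% in GFAP-IL6. It amounted to 0.043%, 0.119% and 0.022% of the pan-myeloid list in WT and 0.216%, 0.413% and 0.354% in GFAP-IL6. The groups did not overlap on either scale, and the ratio of the group means was 9.80 and 5.36. Without WT mouse 2 these ratios were 18.3 and 10.1. These ratios were added after the values had been seen and compare the same mice on another scale, with no test.

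Markers of other cells that could carry the members were summed in the same way. Of 9 genes of border macrophages 0 of 9 tested passed, with sums of 15.7 to 18.5 CPM in WT and 15.1 to 18.9 CPM in GFAP-IL6. Their log2 fold changes ran from -1.16 to 0.55 with a median of 0.27. Only Lyve1, the lowest, had an unadjusted p under 0.05 in edgeR (0.045). Of 8 genes of monocytes and neutrophils 3 were tested and 0 passed (0.656 to 4.10 CPM in WT, 2.42 to 7.72 CPM in GFAP-IL6). Their 3 log2 fold changes were all positive (0.55 to 1.26, median 0.60), at low counts. Plac8, not tested, read 0 to 0.156 CPM in WT and 0.316 to 0.527 CPM in GFAP-IL6, without overlap. The other genes of that list overlapped. Of 6 genes of dendritic cells 2 were tested and 0 passed (8.86 to 10.03 and 7.80 to 10.9 CPM). Among the dendritic cell genes Xcr1 and Clec9a had 0 and 1 counts in all mice, while Zbtb46 read 6.34 to 6.56 CPM in WT and 5.27 to 7.57 CPM in GFAP-IL6 and Flt3 1.77 to 3.12 and 1.90 to 2.97 CPM. Ccr7 had 1 count in each WT mouse and 3, 3 and 6 counts in the GFAP-IL6 mice, and Cd209a was counted in 2 WT and 3 GFAP-IL6 mice. The part of dendritic cells in the Itgax counts was not tested. None of 9 lymphocyte genes reached the test, with sums of 0.131 to 0.832 CPM in WT and 0.815 to 1.53 CPM in GFAP-IL6. Nkg7 read 0 to 0.26 CPM in WT and 0.285 to 0.632 CPM in GFAP-IL6, without overlap. Cd3d read 0 to 0.052 and 0.144 to 0.211 CPM, also without overlap, and the other lymphocyte genes overlapped. Beside Axl and Cd9, 0 of 8 astrocyte genes and 0 of 6 oligodendrocyte genes passed, with medians of 0.11 and -0.12. The astrocyte list leaves out Gfap, whose log2 fold change was 2.44. Its sums were 1693 to 1828 CPM in WT and 1843 to 1985 CPM in GFAP-IL6, without overlap. Its 8 log2 fold changes ran from -0.10 to 0.52, and 2 genes were higher at an unadjusted p under 0.05 in edgeR. Of 5 genes of oligodendrocyte precursors and 7 of neurons 0 passed. The neuron genes, expected of cortex, summed to 5579 to 6639 CPM over the 6 mice. Of 6 endothelial genes 1 was higher, Flt1 (0.70), with a median log2 fold change of 0.62, and all 6 estimates were positive (0.33 to 0.83). Their sums were 51.7 to 58.3 CPM in WT and 62.3 to 85.6 CPM in GFAP-IL6, without overlap. Of 5 genes of pericytes and smooth muscle 1 was higher, Rgs5 (0.52), with a median of 0.15 and sums of 70.8 to 102 CPM in WT and 110 to 131 CPM in GFAP-IL6, also without overlap. The part of these cells in the levels of the members was not tested.

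WT mouse 3 stood apart in genes of the choroid plexus, a tissue of the brain's ventricles that makes cerebrospinal fluid. The 5 genes summed to 4085 CPM in it, to 109 and 164 CPM in the other WT mice and to 756, 433 and 82.1 CPM in GFAP-IL6 mice 1 to 3. Without WT mouse 3 the log2 fold change was 1.15 for Trem2, 0.96 for Tyrobp and 3.55 for Cst7, and the 3 still passed the test (edgeR adjusted p of at most 0.00050).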

How the data were processed

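Total RNA of frontal cortex was read by 3'Pool-seq in 24 libraries of 6 mice. The authors trimmed polyA stretches, ran STAR 2.4 against mm10, and had featureCounts count the unique alignments on GENCODE vM6 genes; its strand setting is not given in the sources used here. They deposited raw counts for 33000 genes without normalization.

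Groups were taken from the labels, and the mouse was the replicate. Counts of the 4 libraries of a mouse were summed and tested by edgeR's quasi-likelihood test (edgeR 4.0.16, R 4.3.3, TMM, filterByExpr, Benjamini-Hochberg over all genes tested). DEGs had adjusted p below 0.05 and a log2 fold change beyond 1 in either direction. The 4 sets were also tested singly. Contrasts within mice were fitted on 24 libraries with the mouse as a block. DESeq2 1.42.0, which the study used, and limma 3.58.1 were alternatives, with other size factors, filters, depths and mice left out. SE is the absolute log2 fold change over the root of the F statistic. The floor of a zero is 3 counts. Counts at 3' ends are not scaled by length, so levels were not compared between genes.

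The members and lists were chosen with earlier results of these data known. All members were named, and from each list up to 4 called genes with the largest fold change and the direct partners of members. Lilrb4a had no row under that symbol, and a gene that this rule names is not reported here. Positions are from GENCODE vM21 on mm10. The tests were checked on simulated data. Python 3.11.15 with pandas 2.3.3, numpy 2.4.6 and matplotlib 3.10.9 made the tables and plots.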

Additional observations from a re-analysis of the deposited data

How the results depend on the processing

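Of 103 repeats of the members' genotype differences under other settings, 96 kept direction and call, 4 gained a call and 3 changed sign. Trem2 ranged from 1.10 to 1.29, Tyrobp from 0.72 to 0.98 and Cst7 from 3.40 to 4.72 on the log2 scale, and they passed the test in each of the settings that could test them. Members called DEGs numbered 2 (180 genes in all), 3 with no filter, which lets Itgax in (245 genes), and 1 with at least 10 counts in every sample, which removes Cst7 (138 genes). At an adjusted p under 0.05, 3 members became 6 with no filter (462 genes in all, against 263), 5 with all 24 libraries in limma-voom (638 genes) and 2 with at least 10 counts in every sample (218 genes). The added members were Spp1 (adjusted p = 0.00093 with no filter and 0.017 in limma-voom) and Cd9 (0.0064 and 0.0011). With no filter Itgax was added too (0.042). Without the filter the log2 fold changes of Spp1 (0.60) and Cd9 (0.37) did not move, while the edgeR adjusted p of Trem2 fell to 2.7e-25. That fit gave Itgax 82516 degrees of freedom from 6 mice, so its p-values rest on spread pooled over genes. The limma-voom setting used 24 libraries of the 6 mice. The cause of the added calls was not tested. Axl turned to -0.078 after thinning and ranged from -0.093 to 0.18 with each mouse left out, with -0.0002 without WT mouse 3.

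Within sets, 1 member called in 1 ng of set A (96 genes in all) became 2 with no filter (135 genes). With at least 10 counts in every sample 2 members became 1 in 2 ng of set B (91 genes became 39). The same held in 1 ng of set B (98 genes became 68). With each mouse left out the members called DEGs stayed at 2 summed (106 to 201 genes in all). They ranged from 1 to 3 in 2 ng of set A (46 to 102 genes), with 1 without WT mouse 1. In 1 ng of set A they ranged from 1 to 3 (52 to 115 genes). There 2 were called without WT mouse 1, 2 or 3, and 3 without GFAP-IL6 mouse 1. In 2 ng of set B they ranged from 2 to 3 (45 to 114 genes). In 1 ng of set B they ranged from 1 to 2 (45 to 113 genes), with 1 without GFAP-IL6 mouse 3. Members called between amounts ranged from 2 to 3 (2729 to 3228 genes in all). Between sets they ranged from 2 to 4 (2763 to 3463 genes), with 2 without GFAP-IL6 mouse 3. Those at an adjusted p under 0.05 between genotypes stayed at 3 (146 to 321 genes).

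A replicate block of same-numbered mice left 2 DEGs (149 genes in all) and 3 called members (215 genes). Same-numbered mice had correlations of -0.050, -0.037 and -0.061 in their deviations from the group means. With 3 mice per genotype these values cannot show whether the numbers pair the mice. Without the block of mice, 1 member in place of 2 was called between amounts (2339 genes) and 2 in place of 4 between sets (2135 genes, against 3477). Depth limits Itgax, with 28 counts in all, and the WT level of Cst7.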
